A study of Mus musculus with 6 samples.

Results

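Cytosolic ribosomal protein genes are described here in cultured mouse interneurons given 1 of 2 adeno-associated viruses. The members are the genes whose symbol is Rpl or Rps followed by a number and at most 1 of the letters a, l, x or y, together with Rplp0 to Rplp2 and Rpsa. The deposited table held 82 such genes of 55335, with 1 row per symbol, of which 50 belong to the large and 32 to the small subunit. Of these, 79 reached a mean of at least 1 FPKM (fragments per kilobase of transcript, scaled to library depth, so a level per transcript length) in a group and were measured, 47 of the large and all 32 of the small subunit. The other 3, Rpl3l, Rpl10l and Rpl39l, stayed under that level and were left out of the tests.

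The cells were primary GABAergic interneurons of wild-type C57BL/6 embryos at embryonic day 14.5, grown on poly-L-lysine and infected for 12 hours before total RNA was taken. One group of 3 libraries received the control virus AAV-scramble (control libraries) and the other group of 3 received AAV-shbrpf1 (shbrpf1 libraries), named for Brpf1, a chromatin-reading subunit of histone acetyltransferase complexes. One label field calls the same cells neural progenitors, and the labels do not say whether the replicates 1 to 3 of a group were separate cultures or how many embryos were pooled. P-values therefore measure only the spread between these libraries, which may be technical.

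Brpf1 itself read 3.29, 5.45 and 4.84 FPKM in the control libraries 1 to 3 and 3.13, 4.58 and 3.78 FPKM in the shbrpf1 libraries 1 to 3. The groups overlapped, and the difference in log2(FPKM + 1) was -0.18 ± 0.26 (SE; limma without the replicate number in the model, adjusted p = 1). Between libraries of the same number, Brpf1 was lower with AAV-shbrpf1 in all 3 pairs, as were 11.3% of all genes tested. All 9 interneuron markers were measured, with a summed level of 629 to 950 FPKM in AAV-scramble and 658 to 784 FPKM in AAV-shbrpf1. The summed level of progenitor and astroglia markers (10 of 10 measured) was lower in both libraries numbered 2, at 414 and 447 FPKM against 1047 to 1114 FPKM elsewhere. Fabp7 alone ranged from 169 to 758 FPKM over the libraries. Not every marker followed the sum, since Vim was at 30.5 FPKM in AAV-scramble 2 and 27.5 FPKM in AAV-scramble 3. Oligodendrocyte lineage markers (6 of 6 measured) had a lower summed level in both libraries numbered 1, at 112 and 129 FPKM against 210 to 279 FPKM elsewhere. Cycling markers (6 of 6 measured) summed to 33.5 and 37.4 FPKM in number 2 against 62.6 to 71.7 FPKM elsewhere. Of the endothelial and mural markers 2 of 6 were measured, Tagln and Acta2. The summed level of this list was higher in both libraries numbered 1, at 26.1 and 24.8 FPKM against at most 1.54 FPKM elsewhere. Its other genes, Kdr, Pecam1, Cldn5 and Rgs5, stayed at or below 0.60 FPKM in every library. None of the 6 glutamatergic, 6 microglial or 3 erythroid markers was measured, their sums stayed at or below 0.95, 0.37 and 1.07 FPKM, and Cx3cr1 and Hba-a1 were listed at 0 in every library. Ribosomal RNA loci made up 29.4% and 36.7% of all FPKM in the 2 libraries numbered 2, against 7.66% to 11.7% elsewhere. Mitochondrially encoded genes made up 21.1% and 21.2% in number 1, 6.57% and 4.75% in number 2, and 13.8% and 13.4% in number 3.

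A cytosolic ribosome consists of a small subunit, which reads the messenger RNA, and a large subunit, which joins the amino acids. Ribosomal proteins are made in about equal amounts, and most of their messenger RNAs begin with an unbroken run of the pyrimidines C and T. That run places their translation under control of the kinase mTOR and the RNA-binding protein Larp1. Some tissues, muscle and testis among them, also use paralogs of a few of the proteins.

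Runs of pyrimidines near the annotated start were common in these genes. RefSeq (build GRCm38.p6) gave a promoter window for 57 of the 79 measured members. A run of at least 8 C or T on the sense strand, within 50 bases either side of the annotated start, was found in 47 of the 57 (82.5%) and in 34.5% of 16217 other protein-coding genes. It was counted anywhere in that stretch, so these shares do not show that the transcripts begin with the run. The letters CCGGAAG, searched on both strands from 250 bases before to 50 after the start, were found in 23 members (40.4%) and in 12.2% of the other genes. The letters AAGATGG, searched in the same way, were found in 8 members (14%) and in 6.43% of the others. These matches are descriptions of the letters and not of bound sites.

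The windows below run from 60 bases before the start to 20 from it, on the strand of the gene, with the longest C or T run near the start (the first of equals) in capitals. They were chosen to show members of the patterns described further on. Rplp2 and Rps27 had their highest mean in the libraries numbered 2, in Rps27 by little (142 FPKM against 139 FPKM in number 3). Rpl5 was low in number 2, Rps6 had a small range, and Rps27l and Rpl10l are paralogs. The window of Rpl10l held no run of 8, and its longest has 5 bases.
Rplp2 (chr7:141447591-141447670, plus strand): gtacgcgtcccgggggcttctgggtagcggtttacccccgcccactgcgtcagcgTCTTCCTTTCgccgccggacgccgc
Rps27 (chr3:90213629-90213708, minus strand): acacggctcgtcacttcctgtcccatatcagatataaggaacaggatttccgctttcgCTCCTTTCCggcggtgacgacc
Rps6 (chr4:86857348-86857427, minus strand): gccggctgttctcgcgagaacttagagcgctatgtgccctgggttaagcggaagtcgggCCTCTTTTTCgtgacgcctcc
Rpl5 (chr5:107900468-107900547, plus strand): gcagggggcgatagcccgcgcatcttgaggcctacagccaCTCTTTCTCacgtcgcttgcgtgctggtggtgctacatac
Rps27l (chr9:66946026-66946105, plus strand): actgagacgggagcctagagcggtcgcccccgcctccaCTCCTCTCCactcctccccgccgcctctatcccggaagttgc
Rpl10l (chr12:66284382-66284461, minus strand): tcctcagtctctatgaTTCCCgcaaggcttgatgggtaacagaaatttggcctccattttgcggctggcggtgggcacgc
In Rplp2, Rps27 and Rps6 the run spans the annotated start itself, while in Rpl5 and Rps27l it lies upstream of it.

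The measured members were abundant transcripts. Each of the 79 had a mean above 5.78 FPKM, the median of the 12792 genes tested. Their median was 96.4 FPKM with quartiles of 43.5 and 143 FPKM, and the medians of the large (90.5 FPKM) and small subunit (100.2 FPKM) were close. Between the most and the least abundant measured member, Rplp1 and Rpl6l, the mean level differed 41.2-fold, but Rpl6l is annotated as a processed pseudogene. Among measured protein-coding members the mean ran from 17.5 FPKM in Rps20 to 520 FPKM in Rplp1, although the proteins are incorporated in about equal amounts. FPKM divides by transcript length, so levels of different genes depend on the annotated transcripts. The coding transcripts of Rps20 had a median length of 3706 bases, the longest among the measured members. It was 499 bases in Rplp1. The pattern of levels over the 79 members was much the same in every library, with a Pearson r across genes of 0.868 to 0.996 between any 2 libraries. Genes are not independent replicates, and these values are a description. The 82 genes lie on 19 chromosomes, 14 of them on chromosome 7 and 4 on the X chromosome.

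**Figure D1:**
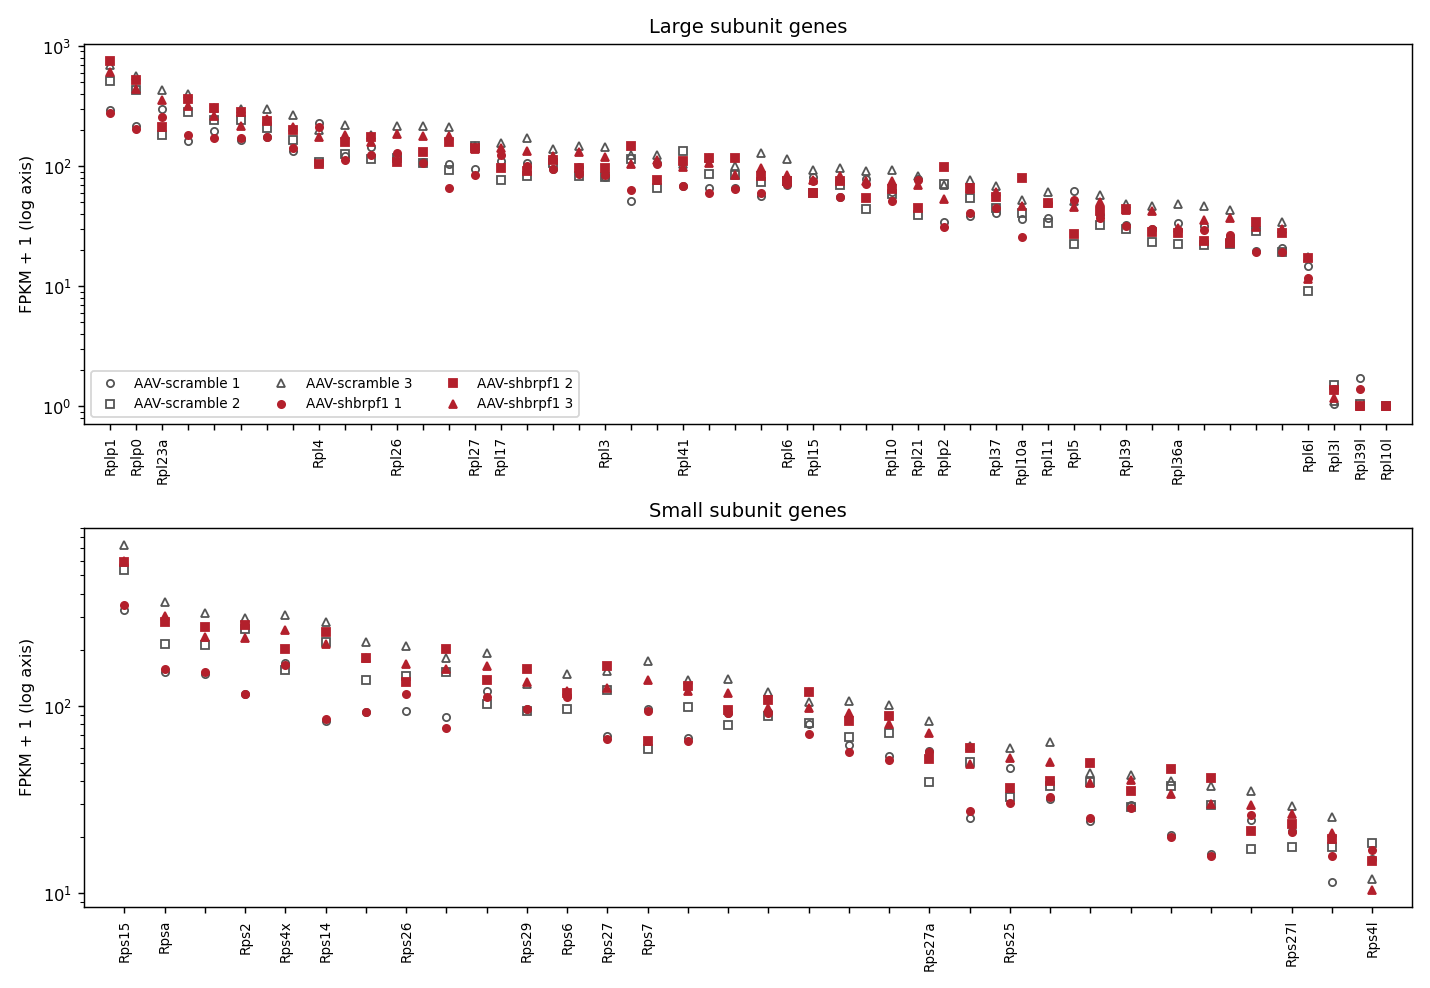
Level of each of the 82 ribosomal protein genes in each library (vertical axis, FPKM + 1 on a log scale), large subunit above and small subunit below, in order of mean level, with the names of members described in the text; open grey symbols are AAV-scramble, filled red symbols AAV-shbrpf1, and circles, squares and triangles the replicates 1, 2 and 3. The level falls from Rplp1 and Rps15, near 520 FPKM, to 3 large subunit paralogs under 1 FPKM. Circles, the libraries numbered 1, lie lowest in 40 of the 79 measured genes, against 23.5% of all genes tested.

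The ribosomal stalk holds the most abundant large subunit members. Rplp1, an acidic protein of the stalk that engages elongation factors, spans bases 61913284 to 61914542 of chromosome 9 (GRCm38, as are all positions) and was at 291, 505 and 696 FPKM in AAV-scramble 1 to 3 and at 277, 744 and 606 FPKM in AAV-shbrpf1 1 to 3. Rplp0, the base of the stalk, was at 213, 429 and 563 FPKM in the control libraries and 202, 520 and 438 FPKM in the shbrpf1 libraries. In both genes the libraries numbered 1 were lowest and the groups overlapped. The third stalk gene, Rplp2, was lower, at 33.4, 69.3 and 68.1 FPKM in the control libraries and 30.0, 96.3 and 52.5 FPKM in the shbrpf1 libraries. Rplp1 and Rplp2 enter the stalk in equal copies, yet their transcripts differed at the FPKM level by a mean of 520 against 58.3. Rplp1 has 1 annotated transcript and Rplp2 has 6, and the lengths behind the deposited values are not known.

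The next large subunit gene was Rpl23a, whose protein lies near the exit of the peptide tunnel. It was at 297, 181 and 431 FPKM in the control libraries and 254, 211 and 356 FPKM in the shbrpf1 libraries, so that here the libraries numbered 2 were lowest. Rpl23a hosts 3 small nucleolar RNA genes and overlaps Tlcd1 on the other strand. Of the 82 members, 29 host such RNA genes and 22 overlap an antisense gene, whose reads cannot be told apart from theirs if strand was not used.

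In the small subunit Rps15 (chromosome 10, 80292453 to 80294114) was highest, at 327, 534 and 727 FPKM in the control libraries and 347, 588 and 593 FPKM in the shbrpf1 libraries. Rpsa, also known as the laminin receptor, followed at 152, 213 and 362 FPKM in the control libraries and 158, 279 and 301 FPKM in the shbrpf1 libraries. Both genes had their lowest pair of values in the libraries numbered 1 and the highest in AAV-scramble 3. Rps27a, which is made as a fusion with ubiquitin, was far lower, at 56.8, 38.4 and 82.4 FPKM in the control libraries and 55.7, 51.6 and 70.7 FPKM in the shbrpf1 libraries.

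No ribosomal protein gene passed the test between the viruses. Of the 79 measured members 0 passed an adjusted p under 0.05 (limma on log2(FPKM + 1), Benjamini-Hochberg adjustment over all genes tested), against a background of 0% of all genes. At an unadjusted p under 0.05 the count was also 0 of 79, and 23 of 12792 genes overall. The smallest adjusted p was 1. The median difference of the members was -0.01 on the log2 scale, beside -0.02 over all genes tested, and it ran from -0.22 in Rps25 to 0.26 in Rps29. None of the 79 had groups that did not overlap, where 1.07% of all genes did.

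The libraries that share a replicate number resembled each other across all genes. With the number as a block, which takes these shared differences out, 0 of 79 members passed, against a background of 0%. At an unadjusted p under 0.05 the blocked counts were 0 members and 280 genes overall. The block lowered the median standard error of a member from 0.335 to 0.128 on the log2 scale. The blocked 95% intervals of the 79 differences reached from -0.75 at the lowest to 0.79 at the highest, with median bounds of -0.32 and 0.31.

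In the fit without the block, the 5 members of smallest p on the higher side were Rps29, Rpl11, Rpl39, Rpl17 and Rpl37. On the lower side they were Rps25, Rpl36a, Rpl15, Rpl6 and Rpl10. The block changed this ranking, with Rpl28 then before Rpl37, and Rpl4, Rpl27 and Rpl41 before Rpl36a, Rpl6 and Rpl10. No member passed the test in either fit, and the standard errors given below are those without the block. Rps29 (chromosome 12, 69157722 to 69159186), a small zinc-binding protein, was at 95.9, 93.1 and 130 FPKM in the control libraries and 96.2, 157 and 134 FPKM in the shbrpf1 libraries. It was the 1 measured member higher with AAV-shbrpf1 in all 3 pairs (background 7.15%), and 2 members, Rpl4 and Rpl27, were lower in all 3 (background 11.3%). The difference of Rps29 was 0.26 ± 0.29 on the log2 scale (SE; limma adjusted p = 1), with a blocked 95% interval of -0.15 to 0.67. Rps25 (chromosome 9, 44407139 to 44410427), which is known for a part in initiation at internal ribosome entry sites, was at 45.9, 31.7 and 58.7 FPKM in the control libraries and 29.4, 35.4 and 51.7 FPKM in the shbrpf1 libraries. Its difference of -0.22 ± 0.33 (SE; limma adjusted p = 1) combined lower values in pairs 1 and 3 with a higher one in pair 2.

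Rpl11 and Rpl5 form a particle with the smallest ribosomal RNA and bind the p53 regulator Mdm2 when ribosome assembly fails. Rpl11 was at 36.1, 32.4 and 59.4 FPKM in the control libraries and 48.5, 48.0 and 48.2 FPKM in the shbrpf1 libraries, a difference of 0.22 ± 0.28 on the log2 scale (SE; limma adjusted p = 1). Its AAV-shbrpf1 values lay within a narrow band inside the range of AAV-scramble. Rpl5 was at 60.9, 21.3 and 49.8 FPKM in the control libraries and 51.1, 26.4 and 45.1 FPKM in the shbrpf1 libraries, and both libraries numbered 2 were low.

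The others of smallest p moved within the same limits. Rpl39, which lines the exit tunnel, differed by 0.13 ± 0.28 on the log2 scale, Rpl17 by 0.12 ± 0.33 and Rpl37 by 0.10 ± 0.28. Rpl36a differed by -0.18 ± 0.31, Rpl15 by -0.13 ± 0.27, Rpl6 by -0.13 ± 0.28 and Rpl10, a late-joining protein of the large subunit, by -0.13 ± 0.29 (SE, all with a limma adjusted p of 1). Rpl6 was higher with AAV-shbrpf1 in 2 of 3 pairs although its mean difference was negative.

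Summed over the members, the level was 6848, 8160 and 12292 FPKM in AAV-scramble 1 to 3 and 6652, 10004 and 10203 FPKM in AAV-shbrpf1 1 to 3. The groups overlapped, with means of 9100 ± 2841 and 8953 ± 1995 FPKM (SD, n = 3 each) and a ratio of 0.984. In bulk RNA, fewer cells of a type and less RNA per cell cannot be told apart. The large subunit summed to 4145 to 7378 FPKM and the small to 2508 to 4914 FPKM. The ratio of large to small was higher in number 1, at 1.72 and 1.65, than elsewhere, at 1.45 to 1.51. As a percentage of all FPKM in the table the members took 2.11% to 4.29%, and of nuclear protein-coding genes 3.88% to 6.49%.

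**Figure D2:**
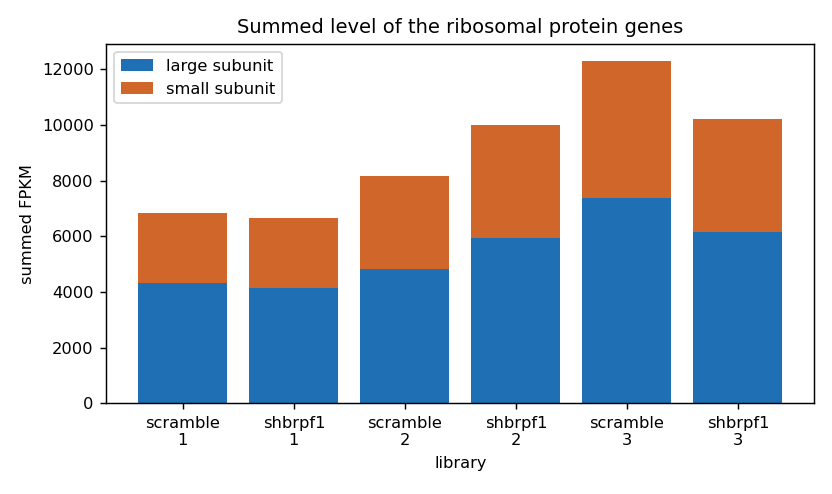
Summed FPKM (vertical axis, from 0) of the large subunit genes (blue) and the small subunit genes (orange) in each library, with the 2 viruses of a replicate number side by side. Both libraries numbered 1 are lowest, with 6848 and 6652 FPKM in all; AAV-shbrpf1 2 exceeds AAV-scramble 2, and AAV-shbrpf1 3 falls short of AAV-scramble 3.

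In pairs 2 and 3 most members differed in the same direction within the pair, and the directions were opposite. In pair 1 the summed level fell by 2.86% with AAV-shbrpf1, and 49 of 79 members were lower (background 56%) with a median of -0.03 on the log2 scale, near the share of all genes. In pair 2 the sum was 22.6% higher, and 73 of 79 members were higher (background 40.2%) with a median of 0.29. In pair 3 the sum fell by 17% and 78 of 79 members were lower (background 47.5%) with a median of -0.25. Over all genes tested the medians of the pairs were -0.02, -0.05 and 0.01. Each pair is 1 library against 1 and has no replicate check.

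Both patterns held in 72 of 79 members (91.1%), which were higher in pair 2 and lower in pair 3, against 24.1% of all genes. The share was 43 of 47 in the large and 29 of 32 in the small subunit. The exceptions were Rps29, which was not lower in pair 3, and the 6 members not higher in pair 2: Rps4l, Rpl41, Rps26, Rpl26, Rpl27 and Rpl4, named after their values were seen. The steepest member was Rpl10a, at 39.9 FPKM in AAV-scramble 2 and 78.8 FPKM in AAV-shbrpf1 2, also picked after its values were seen. The directions in pairs 2 and 3 held under both other scalings: after division by size factors 73 members were higher in pair 2 and 79 lower in pair 3, and after rescaling each library to a common sum 63 and 76. In pair 1 size factors left 39 members lower and 40 higher. Rescaling moved the median of all genes in pair 2 from -0.05 to -0.20, and relative to all genes the median of the members in pair 2 was 0.34 as deposited and 0.35 under either scaling. In pair 3 the same relative median ran from -0.27 to -0.26. A scaling shifts all genes of a library by nearly the same amount, so the relative medians could hardly change and are no separate check.

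**Figure D3:**
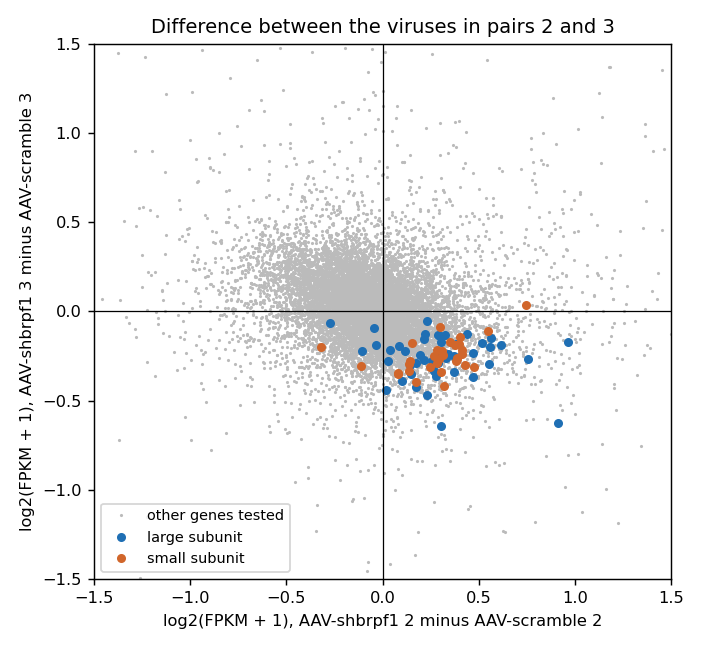
Difference in log2(FPKM + 1) between AAV-shbrpf1 and AAV-scramble in pair 2 (horizontal axis) and pair 3 (vertical axis) for 47 large subunit genes (blue), 32 small subunit genes (orange) and 12713 other genes tested (grey), of which 101 lie outside the axes at 1.5. The members fill the lower right, higher in pair 2 and lower in pair 3, with 72 of 79 there, while the other genes centre near 0.

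Other transcripts gave the same combination less completely. It was found in 56.4% of 78 mitochondrial ribosomal protein genes and in 68.9% of 74 measured ribosomal protein pseudogenes, which can share reads with the members. Among 491 protein-coding genes of like abundance, with a longest transcript of at most 5179 bases, the combination was found in 43.8%. Their typical transcripts were longer than those of the members, with a median of 1618 against 712 bases. Among 134 genes of like abundance whose typical transcript was as short as that of 3 in 4 members, the combination was found in 59.0%. Among related lists it was found in 66.7% of the 9 ribosomal proteins with other names, 39.3% of initiation factors, 40% of elongation factors and other transcripts with a pyrimidine start, and 29.4% of regulators. In pair 3 alone, lower values were common outside the members too. There 113 of the 134 short genes (median -0.15), 60 of the 78 mitochondrial genes and 60 of the 74 pseudogenes were lower. In pair 2 alone, 83 of the 134 short genes (median 0.06), 58 of the 78 mitochondrial genes and 65 of the 74 pseudogenes were higher. These shares are descriptions, and the differences between lists were not tested.

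More members differed between replicate numbers than between the viruses. By limma's F test on the number, with virus in the model, 67 of 79 members (84.8%) differed at an adjusted p under 0.05, against a background of 69.4% of all genes. The count was 40 of 47 in the large and 27 of 32 in the small subunit. Mitochondrial ribosomal protein genes stood below the background, at 37 of 78 (47.4%). The members' excess over all genes was lost without either library numbered 1 or without AAV-scramble 3. Without AAV-scramble 1 the count was 26 of 79 (32.9%), beside 37.4% of all genes, and without AAV-shbrpf1 1 it was 28 of 79 (35.4%), beside 41.8% of all genes. Without AAV-scramble 3 it was 49 of 79 (62.0%), beside 65.2% of all genes. With no filter on low values 34 of 81 members (42.0%) passed, beside 23.2% of all genes.

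The direction was mostly towards low values in number 1. The members' median difference was 0.65 on the log2 scale between numbers 3 and 1, and 75 of 79 were higher in number 3, where 6241 of all 12792 genes were. Both libraries numbered 1 lay below the other 4 in 40 of 79 members, against 23.5% of all genes. As deposited, AAV-scramble 3 was the highest library for 61 of 79 members, against 14.3% of all genes. The mean summed level was then 6750, 9082 and 11247 FPKM in the numbers 1, 2 and 3, which is 1.67 times as much in number 3 as in number 1. After division by size factors the sums were 6000, 10743 and 10525, with number 2 above number 3.

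The place of number 2 depended on the scale. As deposited, the members' median was 0.26 higher in number 2 than in number 1 and 0.37 higher in number 3 than in number 2. After division by size factors these medians were 0.66 and 0.04, and for the small subunit number 3 was then below number 2, at -0.06. After rescaling to a common sum they were 0.13 and 0.64. The median of all genes between numbers 2 and 1 was itself -0.25 as deposited, 0.07 after division by size factors and -0.41 after rescaling. Relative to all genes tested the members were higher in number 2 than in number 1 by 0.50 to 0.59 and higher in number 3 than in number 1 by 0.66 to 0.67 under all 3 scalings. A scaling shifts all genes of a library by nearly the same amount. These relative medians could therefore hardly change between scalings and are no separate check. In the members' own medians number 3 was above number 1 by 0.65 as deposited, 0.72 with size factors and 0.78 after rescaling. With the medians for number 2 given above, number 1 was lowest under each.

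**Figure D4:**
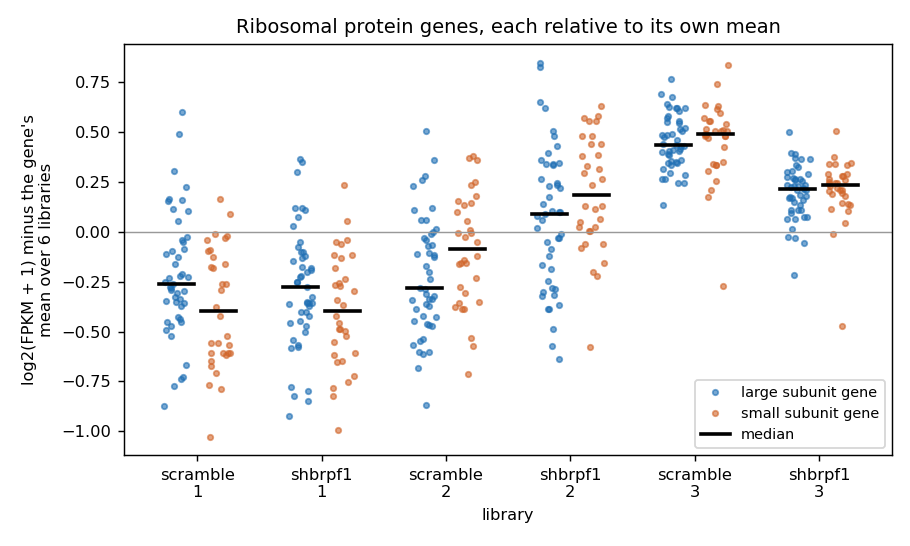
Level of each measured ribosomal protein gene relative to its own mean over the 6 libraries (vertical axis, log2(FPKM + 1) minus the mean), for 47 large subunit genes (blue) and 32 small subunit genes (orange); black bars are medians. Medians are below 0 in both libraries numbered 1 and in AAV-scramble 2, and above 0 in AAV-shbrpf1 2 and in both libraries numbered 3, with AAV-scramble 3 highest.

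Individual members followed different orders of the 3 numbers. The order 3, 2, 1 from high to low was seen in 39 members (49.4%, against 11.3% of all genes), and 3, 1, 2 in 22 (27.8%, against 16.4%). Number 2 was highest and number 1 lowest in 14 (17.7%, against 21.1%), among them Rplp2, Rps2, Rps27 and Rpl10a. The order 1, 3, 2, which 37.8% of all genes followed, was seen only in Rpl4, Rpl5 and Rpl21. Rps4l alone followed 2, 1, 3.

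Base composition moved with these orders. The median GC content of the longest transcript was 55.2% in the members highest in number 2 and lowest in number 1, 52.5% in those of order 3, 2, 1, and 49.4% in those of order 3, 1, 2. It was 48.2% in Rpl4, Rpl5 and Rpl21. Across the 79 members the difference between numbers 2 and 1 had a Pearson r of 0.49 with GC content, and that between numbers 3 and 2 an r of -0.45. Across all genes these were 0.75 and -0.64. The points share the same 6 libraries, and whether GC content, the shares of ribosomal RNA loci and mitochondrially encoded genes or the marker sums given above had a part in the differences between numbers was not tested.

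Members with the largest ranges between numbers included Rps14, Rplp2, Rps7 and Rplp0. Rps14 was at 82.2, 220 and 282 FPKM in the control libraries and 84.1, 248 and 215 FPKM in the shbrpf1 libraries, a range of 1.56 on the log2 scale between the means of the numbers (limma F test, adjusted p = 0.0024). Its 2 libraries numbered 1 agreed closely and lay far below the rest. Rps7, another protein that binds Mdm2, was at 95.7, 58.4 and 173 FPKM in the control libraries and 93.4, 64.3 and 137 FPKM in the shbrpf1 libraries, a range of 1.31 (limma F test, adjusted p = 0.0028). In Rps7 number 2 was lowest, in contrast to Rps14. The stalk genes Rplp2 and Rplp0, whose values stand above, ranged by 1.34 and 1.25 (limma F test, adjusted p = 0.0065 and 0.0040).

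Rpl6l and Rps6 were among the members with the smallest ranges, and neither passed the test between numbers. Rpl6l ranged by 0.19 (limma F test, adjusted p = 0.88). Rps6, the small subunit protein phosphorylated by S6 kinases, was at 113, 95.8 and 147 FPKM in the control libraries and 112, 117 and 120 FPKM in the shbrpf1 libraries, a range of 0.33 (limma F test, adjusted p = 0.20).

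Tissue-restricted paralogs were at or near the floor. Rpl10l, which replaces the X-linked Rpl10 in male germ cells, was listed at 0 FPKM in every library, while Rpl10 was at 50.3 to 90.9 FPKM. Rpl3l, the muscle form of Rpl3, was at 0.04, 0.52 and 0.10 FPKM in the control libraries and 0.40, 0.36 and 0.18 FPKM in the shbrpf1 libraries, or 0.049% to 0.64% of the FPKM of Rpl3 and Rpl3l. Rpl39l, best known from testis, was at 0.72, 0.06 and 0 FPKM in the control libraries and 0.39, 0 and 0 FPKM in the shbrpf1 libraries. It was above 0 in both libraries numbered 1 and in AAV-scramble 2.

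The other 3 members with a symbol ending in l were measured beside their parents. Rps27l, a p53-responsive paralog of Rps27, was at 20.6, 16.7 and 28.2 FPKM in the control libraries and 20.2, 22.4 and 25.5 FPKM in the shbrpf1 libraries. Its share of Rps27 and Rps27l together was 23.2%, 12.1% and 15.5% with AAV-scramble and 23.5%, 12.1% and 17% with AAV-shbrpf1. The share was thus near equal between the viruses within each number and highest in number 1, where Rps27 was at 68.2 and 65.7 FPKM against 121 to 163 FPKM elsewhere. The permutation test gave p = 0.8 (exact, two-sided; adjusted p = 0.8 over 3 pairs), where 3 against 3 cannot go below 0.1.

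Rpl6l and Rps4l are annotated as single-exon processed pseudogenes. Rpl6l matches Rpl6 at 98.7% over 871 aligned bases, so that reads of the parent may be counted under it and its level is uncertain. It was at 8.06 to 16.6 FPKM, a share of 9.86% to 17.7% of the pair (exact permutation p = 0.7, adjusted p = 0.8). Rps4l matches the X-linked Rps4x at only 79.7% over 814 bases and lies antisense to Tmtc1. It was at 14.4, 17.7 and 11 FPKM in the control libraries and 16.0, 14 and 9.42 FPKM in the shbrpf1 libraries, and its share of the pair was lowest in number 3, at 3.46% and 3.56%, against 6.46% to 10.3% elsewhere (exact permutation p = 0.8, adjusted p = 0.8). Rps4x was highest in number 3, at 306 and 255 FPKM, where Rps4l was lowest.

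**Figure D5:**
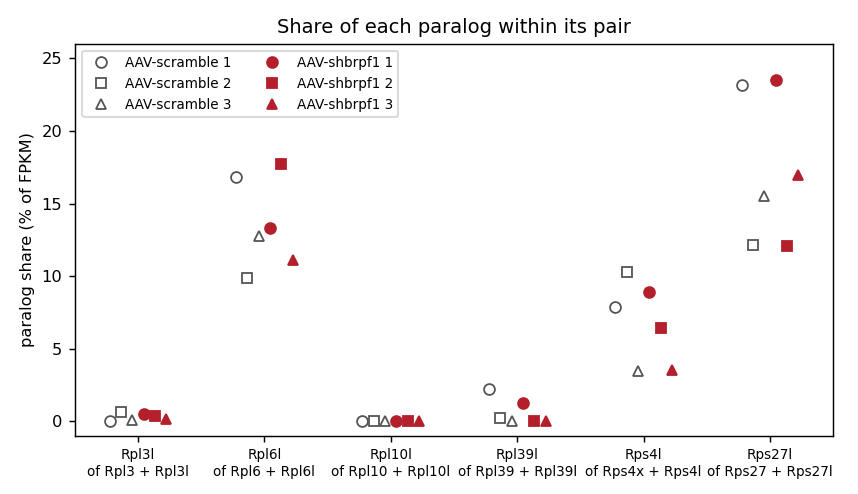
Share of each paralog in the summed FPKM of paralog and parent (vertical axis, %), for the 6 members with a symbol ending in l; open grey symbols are AAV-scramble, filled red symbols AAV-shbrpf1, and circles, squares and triangles the replicates 1, 2 and 3. Rpl3l, Rpl10l and Rpl39l stay at or below 2.25%, and the shares of Rps27l fall into like-shaped pairs, from 12.1% in number 2 to 23.5% in number 1.

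Named pseudogenes of the family added to these levels. Of 275 such genes 74 were measured, led by Rpl31-ps8 with a mean of 175 FPKM, and together they summed to 19.4% to 20.7% of the members' FPKM in every library. The members' ratio between the viruses was 0.984 without and 0.986 with them.

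Genes of the wider pathway gave no call either, since each list had 0 genes past the limma threshold in either direction. All 9 ribosomal proteins with other names were measured, with a median difference of 0.03 on the log2 scale. The most abundant was Rps3a1, at 141 to 386 FPKM. The 28 initiation factors had a median difference of -0.07, led by Eif5a at 74.9 to 138 FPKM and the eIF3 subunit gene Eif3h at 78.0 to 129 FPKM. The 15 elongation factors and other transcripts with a pyrimidine start had a median of -0.04. Eef1a1, which brings aminoacyl-tRNA to the ribosome, was at 685 to 1225 FPKM and lowest in the libraries numbered 2, whereas Eef2, the translocation factor, was lowest in number 1, at 363 and 371 FPKM, against 560 to 793 FPKM elsewhere.

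Regulators of ribosomal protein synthesis were measured in 17 of 17 cases, with a median difference of -0.02. Larp1, which binds the pyrimidine start, was at 33.0, 60.1 and 40.6 FPKM in the control libraries and 30.0, 61.0 and 41.7 FPKM in the shbrpf1 libraries. Eif4ebp2, a repressor of cap-dependent initiation, was at 15.6, 46.5 and 40.6 FPKM in the control libraries and 15.9, 49.1 and 37.0 FPKM in the shbrpf1 libraries. Both kept near equal values within a number and were lowest in number 1. The list was mixed, since 9 of the 17 regulators were higher in number 2 than in number 1 and 10 were higher in number 3 than in number 1. Rheb, Tsc1, Larp4 and Rps6kb1 were among those with their highest mean in number 1. The 78 mitochondrial ribosomal protein genes had a median of 0.00, with Mrps21 at 38.8 to 54.8 FPKM and Mrpl12 at 28.2 to 47.8 FPKM.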

How the data were processed

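The authors deposited FPKM per gene for 6 libraries, normalized for transcript length and depth; the header names no unit, which was inferred from fractional values with unequal totals. Tools listed in the submitters' processing notes are FastQC, StringTie and DESeq2, with neither version nor purpose, and the listed build is mm9. The gene coordinates of all 82 members equal those of GENCODE M21, which annotates GRCm38. Aligner, strand setting and filters: not given in the sources used here. Steps in low values gave an estimated 13.1 to 21.1 M fragments per library, and the measured member with fewest fragments had 107 to 215 of them, a counting error of 6.8% to 9.7%. Only 40.3% to 44.8% of low values (up to 5 steps, tolerance 0.03) were whole, so whole reads were not recovered.

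A gene entered the tests if either group averaged 1 FPKM or more. Tests used log2(FPKM + 1) and limma 3.58.1 (trend, two-sided) in R 4.3.3, with all 6 libraries in 1 fit without covariates and p-values adjusted over all genes. Fold changes on this scale understate the change of low genes. The fits were tested on simulated data with the spread found within replicate numbers. The simulated virus comparisons held no differences between numbers. They therefore do not give the power of the virus test without the block on these libraries. Same-numbered libraries deviated together from their group means (r = 0.866, 0.829 and 0.574 over all genes, other combinations at most 0.002), so the replicate number was taken to pair them; the labels give the numbers but not what they share. Paralog shares were compared by an exact permutation test, and paralogs were aligned to parents with BLAST 2.17.0.

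The members, gene lists and tests were chosen with earlier results of these data known. Genes are named if they had the 5 smallest p-values in a direction, were among the 3 most abundant of a subunit, end in l or are the parent of such a gene, had the 5 largest or 3 smallest ranges between replicate numbers, belong to the stalk or to Rpl5, Rpl11, Rpsa and Rps27a, or were unmeasured; related lists give their 2 most abundant. Some genes that this rule names are not reported here. The closing part gives the effect of another pseudocount, no filter, other scalings, the block and leaving out libraries.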

Additional observations from a re-analysis of the deposited data

How the results depend on the processing

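The count of 0 ribosomal protein genes past the threshold between the viruses was the same in every alternative run, which were a pseudocount of 0.1, no filter on low values, rescaling to a sum of 1000000 per library, size factors, summed rows, leaving out each library, and the replicate block alone, with either scaling or without each number. The replicate block changed no call. By the depth estimated from steps in low values, the measured member with fewest fragments in a library had a counting error of up to 9.7%. The median difference of the members ran from -0.16 to 0.24 when a library was left out, and from -0.14 to 0.13 under the replicate block with a number left out. It was -0.06 after rescaling and -0.01 with size factors. Of the 30 measured genes that the naming rule takes, 7 to 15 changed sign when a library was left out, 4 after rescaling and 1 with size factors, and none of them passed in any setting. Rpl6l moved to -0.48 under the replicate block without replicate 2. The ratio of the summed level ran from 0.876 to 1.19 when a library was left out. The count between replicate numbers, 67 of 79, fell to 34 with no filter, where 31057 genes were tested, and ran from 26 to 76 when a library was left out, lowest without AAV-scramble 1. An exact sign-flip test within replicate numbers, the paired analysis of the paralog shares, gave p = 1 for Rpl6l, 1 for Rps4l and 0.5 for Rps27l, where the smallest possible p is 0.25. The combinations of the block with a scaling and the share of nuclear protein-coding genes were chosen after seeing the data.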
